A study of Mus musculus with 71 samples.

Results

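The transcripts of 7 genes that carry the insulin signal or move glucose into the adipocyte were followed through rosiglitazone (RSG) treatment of a pair of murine adipocyte lines. The genes were Insr, Irs1, Irs2, Pik3r1, Akt2, Slc2a4 and Slc2a1. They were taken by name, with earlier results of these data known. Every probe set (the array's unit of measurement for a transcript) annotated to exactly 1 gene was kept where that gene was one of the 7. This gave 14 probe sets of the 22626 on the array that are not controls, and 7 genes of the 12394 that have such a probe set. Insr had 2, Irs1 1, Irs2 1, Pik3r1 3, Akt2 2, Slc2a4 2 and Slc2a1 3.

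The arrays came from differentiated 3T3-L1 and C3H/10T1/2 cells, fibroblast-like mouse lines that form adipocytes in culture. In each line, cells received 1 μM RSG or its vehicle DMSO for 1, 2, 4, 7, 24 or 48 hrs, with 3 arrays in every group except 3T3-L1 DMSO at 2 hrs, which had 2 (71 arrays in all). RSG is an agonist of the nuclear receptor PPARγ. Both lines, the DMSO groups included, had been differentiated with insulin and RSG, 3T3-L1 cells also with 3-isobutyl-1-methylxanthine and dexamethasone. The RSG dose was lower and its time shorter in 3T3-L1, and these cells then spent days in medium without it. C3H/10T1/2 cells had RSG and insulin until differentiation ended. All were then held for 24 hrs in a serum-free medium without insulin or RSG in which the treatment also took place. Each line is a single established line, so replicates, which came from separate differentiations, measure the spread between cultures of that line.

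Insulin binds its receptor (Insr), a tyrosine kinase at the cell surface, which phosphorylates the adaptor proteins Irs1 and Irs2. These recruit phosphoinositide 3-kinase through its regulatory subunit p85α (Pik3r1), and the kinase Akt2 downstream of it sends vesicles with the glucose carrier GLUT4 (Slc2a4) to the plasma membrane. GLUT1 (Slc2a1) carries glucose without needing that signal, and GLUT4 is the carrier that marks fat and muscle.

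Promoters in the RefSeq-derived table (build GRCm38.p6) were matched by symbol for 5 of the 7 genes, Irs1, Irs2, Pik3r1, Akt2 and Slc2a1. The 250 bases before the start were searched on both strands for the palindromic E-box CACGTG, for the insulin response sequence TGTTTTG that forkhead proteins bind, for the hypoxia response core ACGTG, which lies within the E-box, and for the direct repeat of AGGTCA with a single spacer base that PPARγ binds with its partner RXR. Irs1 and Irs2 are shown because both adaptors held the E-box beside the insulin response sequence, and Slc2a1 because it is the carrier whose level moved most. Capitals mark matches to any of the first 3 motifs.
Irs1, chr1:82291440-82291689, minus strand: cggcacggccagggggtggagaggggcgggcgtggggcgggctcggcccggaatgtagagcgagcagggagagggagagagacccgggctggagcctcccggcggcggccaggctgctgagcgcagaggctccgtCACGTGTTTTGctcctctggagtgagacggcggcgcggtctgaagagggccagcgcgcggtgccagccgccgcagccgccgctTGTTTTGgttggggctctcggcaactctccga
Irs2, chr8:11008930-11009179, minus strand: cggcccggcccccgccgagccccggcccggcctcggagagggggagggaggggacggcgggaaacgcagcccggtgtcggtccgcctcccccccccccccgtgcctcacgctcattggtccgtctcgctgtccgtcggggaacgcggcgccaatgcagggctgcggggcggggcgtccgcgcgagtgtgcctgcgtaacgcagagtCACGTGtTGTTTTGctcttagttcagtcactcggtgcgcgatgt
Slc2a1, chr4:119108495-119108744, plus strand: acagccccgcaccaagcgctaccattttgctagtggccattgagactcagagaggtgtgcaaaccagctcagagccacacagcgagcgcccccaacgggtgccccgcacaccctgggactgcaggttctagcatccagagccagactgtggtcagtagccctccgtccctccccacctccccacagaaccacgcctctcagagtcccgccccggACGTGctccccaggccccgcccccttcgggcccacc

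The E-box occurred in 6.02% of the 32851 promoters of that length, the insulin response sequence in 5.56%, the hypoxia response core in 16.6%, and the E-box and insulin response sequence together in 0.295%. In Irs1 the E-box overlapped the insulin response sequence, which occurred once more closer to the start, and in Irs2 a single base separated them. The Slc2a1 window held the hypoxia response core once and neither of the others. The direct repeat had no match in any window of these genes and one in 0.0335% of all windows. These are matches of letters in 1 window per start.

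Signals are MAS 5.0 values on a linear scale, scaled to a common mean on every array, and the limit for presence was the level below which the study's methods call a probe set absent, taken from negative control probe sets. Differences are on the log2 scale, RSG minus DMSO, with the standard error (SE) of a limma fit over all arrays of a line, and p-values were adjusted over all probe sets tested. A probe set is called where its adjusted p is under 0.05. Whether the arrays of 2 groups overlap is given as description only. With so few arrays some groups separate without any effect, and the share of all probe sets that separate was not counted. All 14 probe sets were among the 18028 tested in 3T3-L1 and 13 were among the 16123 tested in C3H/10T1/2, where Insr 1421380_at lay under that limit in every group mean. Adipocyte transcripts were abundant on every array: Adipoq ranged between 5669.8 and 9356.4 in 3T3-L1 and between 4965.8 and 7729.4 in C3H/10T1/2. Lep stayed under the limit of presence on all arrays, with maxima of 18.4 and 5.5. Of the brown adipocyte markers, Ucp1 also lay under it, with maxima of 7 and 5.6, while Cidea ranged between 32 and 975 in 3T3-L1, against 168.3 and 1931 in C3H/10T1/2. Dio2 and Ppargc1a reached 83.9 and 116 in 3T3-L1, against 43.8 and 41.3 in C3H/10T1/2. One array, 3T3-L1 DMSO at 48 hrs replicate 1, correlated least with its group (r = 0.924 and 0.932 over probe sets, against 0.954 between the other two), and its effect is given where leaving it out changed a 48-hr call.

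In 3T3-L1, Irs2, Slc2a4 and Slc2a1 were called higher with RSG than with DMSO. The calls began at 4 hrs for Irs2 and at 24 hrs for both Slc2a4 probe sets. Slc2a1 was called on a single probe set at 24 hrs and on every one at 48 hrs. Rises of Slc2a4 1415959_at and Akt2 1421324_a_at at 4 hrs, among others, had no overlap between groups but no call, and are not counted as responses. None of the 14 probe sets was called lower at any time. Slc2a1 1426599_a_at and 1426600_at at 2 and 4 hrs (differences between -0.46 and -0.30) and Pik3r1 1425515_at at 48 hrs (-0.32) had every RSG array below every DMSO array without a call, with adjusted p of 0.33 or more. The probe sets called were 0 at 1 hr, 0 at 2 hrs, 1 at 4 hrs, 1 at 7 hrs, 4 at 24 hrs and 7 at 48 hrs. Over the same times, the percent of all tested probe sets that were called was 0.0666%, 0.172%, 0.716%, 2.04%, 11.8% and 14.3%. Calls in the upward direction made up 4.79% at 24 hrs and 6.2% at 48 hrs, and downward calls 6.97% and 8.09%. The median difference of the 14 was 0.33 at 24 hrs and 0.59 at 48 hrs, where that of all probe sets was -0.012 and -0.032. Because the genes were chosen with earlier results known, these contrasts with all probe sets are description only. The 7 calls at 48 hrs were those of Irs2, Akt2 1421324_a_at and every Slc2a4 and Slc2a1 probe set, and probe sets of the same gene are not separate evidence. With these limma fits 1 of the 14 had an unadjusted p under 0.05 at 1 hr and 0 at 2 hrs, and the methods' test (analysis of variance without adjustment, with a 1.2-fold limit) called 1 and 0. Without DMSO replicate 1 at 48 hrs, 6 of the 14 were called at 48 hrs and 10.5% of all probe sets.

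**Figure D1:**
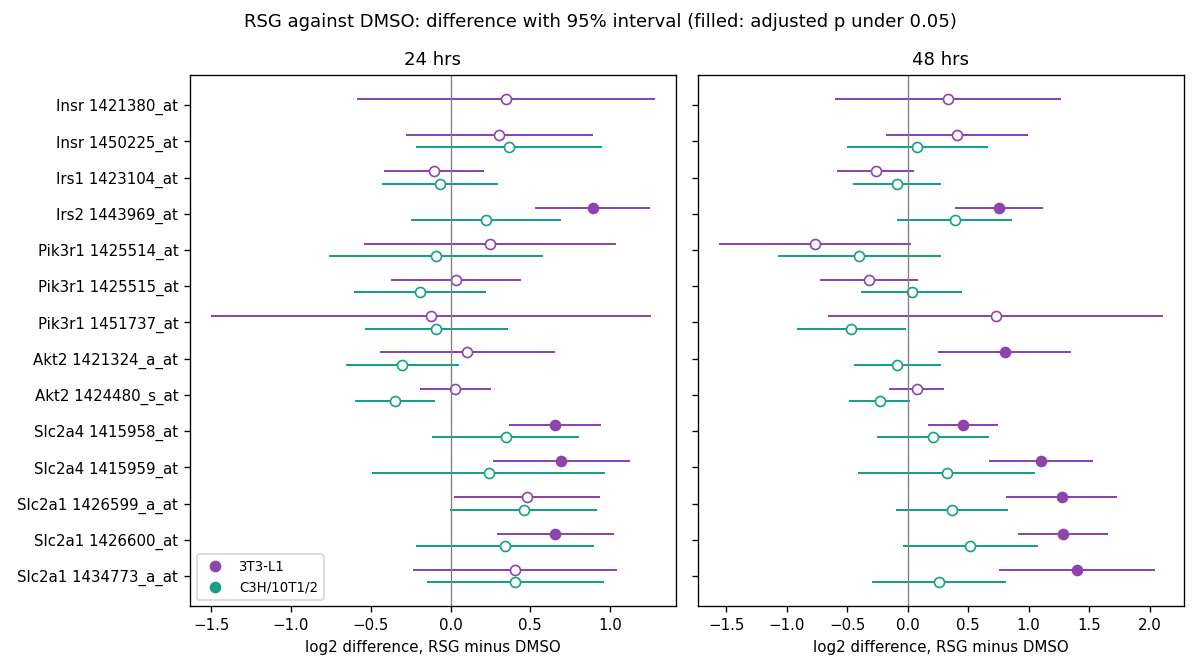
Log2 difference of RSG minus DMSO (horizontal axis) for each probe set at 24 hrs (left) and 48 hrs (right), in 3T3-L1 (purple) and C3H/10T1/2 (green). Bars are 95% intervals and filled points have an adjusted p under 0.05: 4 in 3T3-L1 at 24 hrs, 7 at 48 hrs, and none in C3H/10T1/2 at these times.

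Irs2, the adaptor that in liver rises on fasting, was the first of the 7 genes to be called with RSG in 3T3-L1. The order in which the genes responded was not tested. At 4 hrs its probe set 1443969_at read 293.6, 312.7 and 349.7 with RSG and 128.9, 180.9 and 169.4 with DMSO in 3T3-L1. The lowest RSG array lay well above the highest DMSO array, and the difference was 1.01 (SE 0.17, adjusted p = 0.00119, limma). At 7 hrs it read 347, 329.4 and 404.5 with RSG, against 239, 192.4 and 197.7 with DMSO (difference 0.78, adjusted p = 0.0099). That call was lost when RSG replicate 3, DMSO replicate 2 or DMSO replicate 3 was left out, with adjusted p between 0.057 and 0.0738. The separation persisted to the end of the course. At 24 hrs Irs2 read 299.4, 262.1 and 314.8 with RSG and 175.2, 149.4 and 147.4 with DMSO (0.89, SE 0.17, adjusted p = 0.000575). At 48 hrs the arrays read 316.7, 264.6 and 270.7 with RSG and 148.6, 164.7 and 193.2 with DMSO (0.75, adjusted p = 0.00254). RSG and DMSO arrays did not overlap at any of these 4 times. At 1 and 2 hrs the differences were 0.33 and 0.38 and neither was called.

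The mean Irs2 level in DMSO was itself lower at every later time than at 1 hr, though only 24 and 48 hrs were tested against it. In 3T3-L1 DMSO cells Irs2 averaged 157 ± 15.5 at 24 hrs and 273 ± 49.7 at 1 hr (SD, n = 3 each), a difference of -0.78 (adjusted p = 0.0171). At 48 hrs the difference from 1 hr was -0.68 (adjusted p = 0.0301). Each of these calls was lost on leaving out any of 4 arrays, DMSO 1 hr replicates 1 and 3 among them in both cases, with adjusted p up to 0.108 and 0.187. RSG cells averaged 340.1 at 1 hr, 287 at 2 hrs, 319 at 4 hrs, 360.3 at 7 hrs, 292 at 24 hrs and 284 at 48 hrs. These comparisons share the DMSO arrays of 24 and 48 hrs with those of RSG against DMSO.

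**Figure D2:**
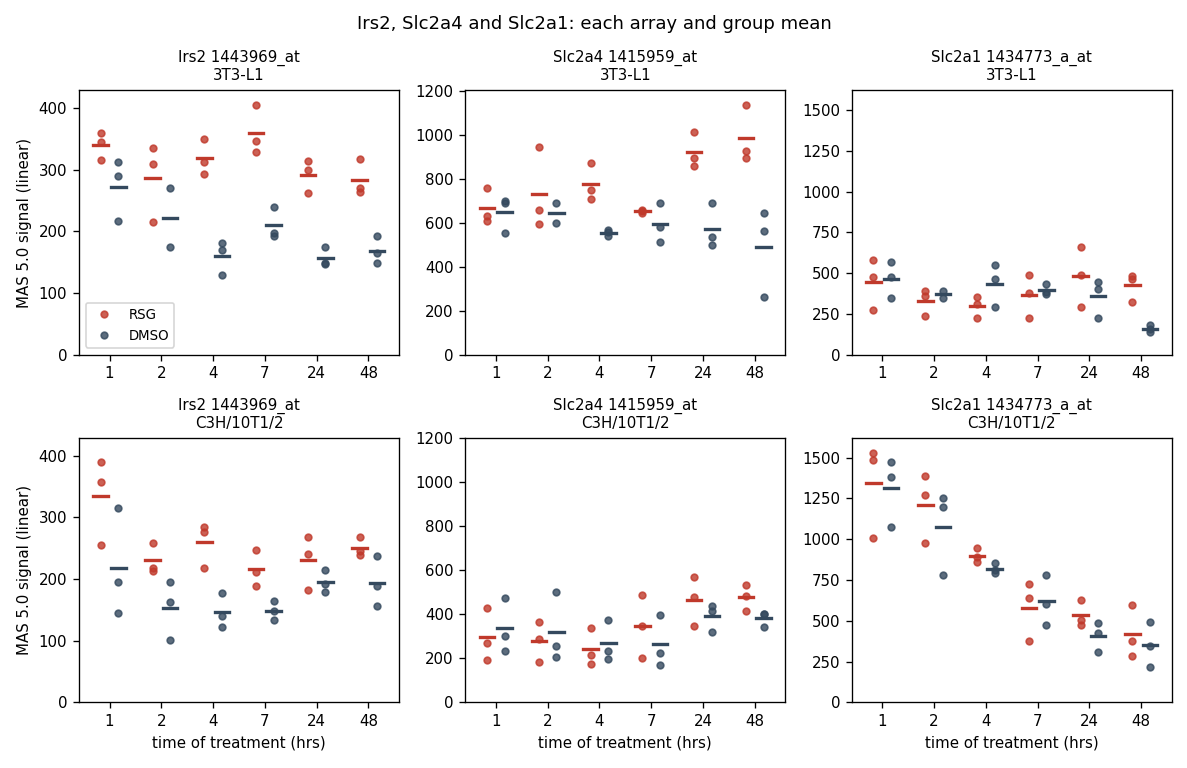
Linear signal of each array (points) and group means (bars) for Irs2, Slc2a4 and Slc2a1 (1 probe set each, that with the highest mean) against time of treatment, RSG in red left of DMSO in grey. In 3T3-L1 the Irs2 arrays separate from 4 hrs and the Slc2a1 arrays at 48 hrs, and in C3H/10T1/2 the Slc2a1 signal fell over the course with either treatment.

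The Irs2 difference in C3H/10T1/2 had the same sign at all 6 times, but its call depended on the pairing of arrays. At 4 hrs it read 217.3, 276.9 and 284.9 with RSG and 139.9, 177.8 and 122.1 with DMSO. The groups did not overlap, and the difference of 0.83 (SE 0.23) had an adjusted p of 0.0911 without and 0.0123 with the replicate number as a block. At 7 hrs the arrays read 189, 246.6 and 211.8 with RSG and 133.4, 148.8 and 164.5 with DMSO (0.53, adjusted p = 0.25). The differences at 1 and 2 hrs were 0.67 and 0.64, with adjusted p of 1 and 0.622. At 24 and 48 hrs they were 0.22 and 0.39, and the 95% intervals ran from -0.24 to 0.69 and from -0.076 to 0.85.

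Slc2a4, which encodes GLUT4, rose in 3T3-L1 at 24 and 48 hrs on both of its probe sets. At 24 hrs 1415958_at read 817.3, 661.3 and 729.6 with RSG and 562.7, 434.3 and 413.7 with DMSO (0.65, SE 0.14, adjusted p = 0.00135). On 1415959_at the arrays read 1012.9, 855.1 and 892.5 with RSG and 687.7, 534.1 and 497 with DMSO (0.69, SE 0.21, adjusted p = 0.0245). Every RSG array lay above every DMSO array on both. The call on 1415959_at was lost on leaving out RSG replicate 1 or 3 or DMSO replicate 2 or 3 (adjusted p between 0.051 and 0.128).

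At 48 hrs 1415958_at read 784.2, 624.9 and 728.8 with RSG and 527.2, 457.3 and 570 with DMSO (0.46, adjusted p = 0.0212), a call lost without RSG replicate 1, RSG replicate 3 or DMSO replicate 2 (adjusted p between 0.0649 and 0.112). On 1415959_at the arrays read 1133, 892.4 and 926.7 with RSG and 263.2, 560.6 and 644.4 with DMSO (1.10, SE 0.21, adjusted p = 0.000295). DMSO replicate 1 is the low value there. Without it the difference was 0.70 (adjusted p = 0.00494) and that of 1415958_at was 0.47 (adjusted p = 0.045). Up to 7 hrs neither probe set was called, and the differences lay between -0.022 and 0.48. At 4 hrs 1415959_at read 750.3, 707.9 and 870.6 with RSG and 540.1, 558.6 and 565.7 with DMSO, without overlap.

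No Slc2a4 probe set was called at any time in C3H/10T1/2. At 24 hrs 1415958_at read 371.4, 364 and 451.2 with RSG and 320.9, 273.4 and 338.2 with DMSO, and at 48 hrs 424.7, 422.3 and 397.8 with RSG and 336.8, 393.5 and 347.9 with DMSO. The RSG arrays were the higher ones without overlap at both times, by 0.35 and 0.21, with adjusted p of 0.419 and 0.75. The 95% intervals of this probe set, -0.11 to 0.80 and -0.25 to 0.67, held its values measured in 3T3-L1 at the same times. On 1415959_at the groups overlapped at 24 hrs. At 48 hrs it read 416.9, 535.1 and 483.3 with RSG and 402.4, 343 and 399.8 with DMSO, without overlap.

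Slc2a1, which encodes GLUT1, gave the largest differences of the 7 genes at 48 hrs in 3T3-L1, and its 3 probe sets moved together (r between 0.973 and 0.983 over 24 group means centred within each line, a description). On 1434773_a_at the arrays read 324.1, 466.8 and 485.2 with RSG and 141, 154.8 and 183.3 with DMSO (1.40, SE 0.31, adjusted p = 0.00178). On 1426600_at they read 393.7, 479.6 and 468.2 with RSG and 145.7, 185.6 and 226.5 with DMSO (1.28, SE 0.18, adjusted p = 3.95e-06). On 1426599_a_at they read 181, 306.4 and 345.4 with RSG and 95.5, 119.3 and 119.4 with DMSO (1.27, SE 0.22, adjusted p = 0.000113). No RSG array reached down to a DMSO array on any of them. Leaving out any 1 array left all 3 calls in place. At 24 hrs the differences were 0.41, 0.66 and 0.48 in the same order, and 1426600_at alone was called (adjusted p = 0.012), with arrays at 384.5, 433.6 and 546.9 with RSG and 213, 390.4 and 279.3 with DMSO that overlapped. That call was lost without RSG replicate 3 or DMSO replicate 1 (adjusted p = 0.092 and 0.12).

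The DMSO series showed what this difference was measured against. In 3T3-L1 DMSO cells, 1434773_a_at averaged 465, 369, 436, 394, 358 and 159.7 from 1 to 48 hrs, and the 48-hr value differed from that at 1 hr by -1.52 (SE 0.31, adjusted p = 0.00433). On 1426600_at and 1426599_a_at the same contrast gave -1.16 and -1.28 (adjusted p = 0.000109 and 0.000611). RSG cells averaged 425 ± 88.2 on 1434773_a_at at 48 hrs and 444 ± 156 at 1 hr (SD, n = 3 each). Thus the 48-hr difference in 3T3-L1 stood between a lower DMSO level and an RSG level within the range of the earlier arrays. The DMSO arrays of 48 hrs enter both comparisons.

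The Slc2a1 averages in C3H/10T1/2 were also lower late in the course, with either treatment. The DMSO averages of 1434773_a_at were 1312, 1078, 817, 621, 407 and 353 from 1 to 48 hrs, and RSG cells averaged 1343, 1212, 899, 579.8, 534.5 and 419. In DMSO the differences from 1 hr were -1.70 at 24 hrs and -1.96 at 48 hrs (adjusted p = 3.56e-05 and 4.18e-06), and those of the other probe sets were between -1.67 and -2.24. At 48 hrs the arrays read 595.7, 283.8 and 377.2 with RSG and 345.3, 217.8 and 495.1 with DMSO, and they overlapped. RSG differences at 24 hrs were 0.41, 0.34 and 0.46, and at 48 hrs 0.26, 0.52 and 0.37, for 1434773_a_at, 1426600_at and 1426599_a_at, and none was called (adjusted p between 0.242 and 0.742). The 48-hr difference of 1434773_a_at turned to -0.029 without RSG replicate 1 and to -0.050 without DMSO replicate 2.

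Insr, the receptor itself, was not called with RSG in either line. Its brighter probe set 1450225_at read 84.4, 116 and 69.5 with RSG and 80, 92.7 and 39.4 with DMSO at 48 hrs in 3T3-L1 (0.41, SE 0.28), and 53.7, 48.5 and 34.2 with RSG and 46, 42.5 and 38.7 with DMSO in C3H/10T1/2 (0.078, SE 0.28). The largest difference was at 1 hr in 3T3-L1, where the arrays read 110.5, 130.4 and 77.3 with RSG and 79.5, 45.8 and 52.9 with DMSO (0.84, SE 0.28, adjusted p = 0.999). The groups overlapped narrowly. Insr 1421380_at lay near the limit of presence in 3T3-L1, with arrays between 9.7 and 42.8, and gave no call.

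Irs1, the other main adaptor of the receptor in fat, moved with time and not detectably with RSG. In 3T3-L1 at 48 hrs it read 712.1, 875.3 and 695 with RSG and 742.6, 934.4 and 1086.2 with DMSO (-0.27, SE 0.15, adjusted p = 0.282). In C3H/10T1/2 the widest difference was at 2 hrs, where the arrays read 753.3, 798.7 and 757.6 with RSG and 559.1, 529.6 and 532.5 with DMSO. These groups stood clear of each other, by 0.51 (SE 0.17), with an adjusted p of 0.541, or 0.0808 with the replicate block. In DMSO cells Irs1 was higher at 24 and 48 hrs than at 1 hr in C3H/10T1/2 by 0.86 and 0.95 (adjusted p = 0.000829 and 0.000274). In 3T3-L1 the 48-hr difference was 0.56 (adjusted p = 0.0452), and it lost the call on leaving out any of 5 arrays (adjusted p between 0.0653 and 0.201).

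Pik3r1, the regulatory subunit of phosphoinositide 3-kinase, gave the 1 call with RSG in C3H/10T1/2, a fall. At 7 hrs 1451737_at read 46.4, 52.4 and 57.5 with RSG and 117.8, 88.2 and 85.4 with DMSO (-0.89, SE 0.22, adjusted p = 0.0167). The 3 RSG arrays lay below the 3 DMSO arrays. Leaving out replicate 1 of either group ended the call (adjusted p = 0.0922 and 0.106). On 1425514_at the same arrays read 36.6, 44.8 and 31.6 with RSG and 110.4, 62.8 and 61.8 with DMSO (-1.02, SE 0.33), with an adjusted p of 0.0912, or 0.017 with the replicate block. The brightest probe set, 1425515_at, read 87, 61 and 66.8 with RSG and 101.1, 65.2 and 104 with DMSO, and its groups overlapped (-0.32, adjusted p = 0.494). In 3T3-L1 no Pik3r1 probe set was called, and 1451737_at had the widest spread of the 14 (SE 0.67), with DMSO arrays between 7.3 and 61.6. Across the 24 group means its 3 probe sets correlated by 0.22 to 0.67, so they disagreed more than those of Slc2a1.

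Akt2, the Akt isoform linked to glucose uptake, had 1 call with RSG that rested on 1 array. At 48 hrs in 3T3-L1 1421324_a_at read 321, 365.2 and 304.6 with RSG and 82.6, 287.4 and 283.8 with DMSO (0.80, SE 0.27, adjusted p = 0.0395). Without DMSO replicate 1 the difference was 0.21 (adjusted p = 0.571), and leaving out any RSG array of that time also ended the call (adjusted p between 0.0614 and 0.13). The brighter 1424480_s_at, whose suffix marks probes that can match more than 1 transcript, read 886.2, 1024.2 and 894.5 with RSG and 750.5, 1025.6 and 905.2 with DMSO (0.074, SE 0.11). The same probe set in C3H/10T1/2 read 871.5, 687.4 and 919.3 with RSG and 1181, 1028.8 and 935.6 with DMSO at 24 hrs. All RSG arrays were lower there, by 0.35 (SE 0.12), with an adjusted p of 0.0708, or 0.0415 with the replicate block. In C3H/10T1/2 DMSO cells both probe sets were higher at 24 hrs than at 1 hr, by 0.87 and 0.79 (adjusted p = 0.000618 and 1.84e-05), and at 48 hrs by 0.78 and 0.71 (adjusted p = 0.00199 and 9.95e-05). The same contrasts in 3T3-L1 gave no call.

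**Figure D3:**
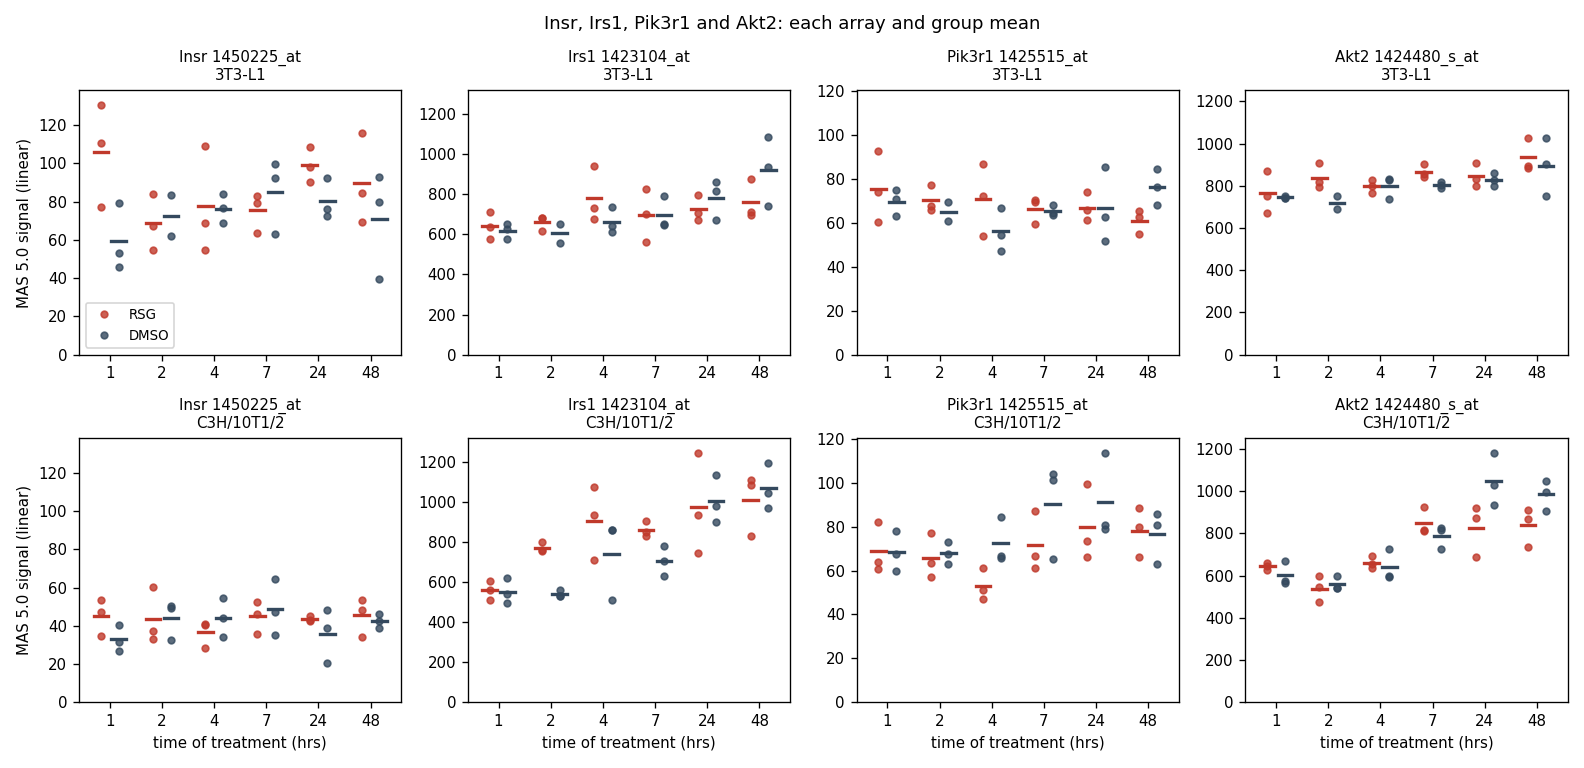
Linear signal of each array (points) and group means (bars) for Insr, Irs1, Pik3r1 and Akt2 (1 probe set each, that with the highest mean) against time of treatment, RSG in red left of DMSO in grey. RSG and DMSO arrays mostly overlap, and in C3H/10T1/2 Irs1 and Akt2 were higher at 24 and 48 hrs than at 1 hr in DMSO.

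Counted over the course, C3H/10T1/2 had 0 of 13 probe sets called at 1, 2, 4, 24 and 48 hrs and 1 at 7 hrs. The percent called among all tested there was 0.0434%, 0.229%, 0.763%, 2.85%, 7.72% and 5.41% from 1 to 48 hrs. At 24 hrs 3.65% were called higher and 4.07% lower, and at 48 hrs 2.79% higher and 2.62% lower. In the limma fits an unadjusted p under 0.05 was found for 1, 2, 4, 3, 2 and 1 of the 13 from 1 to 48 hrs, and the calls of the methods' test were 1, 2, 4, 3, 1 and 1. With the replicate block the calls were 0, 0, 1, 2, 1 and 0.

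The difference of the RSG effect between the lines, 3T3-L1 minus C3H/10T1/2, was tested directly and was called for 0 of the 14 probe sets at every time, or for 1 at 48 hrs with the replicate block. The shares of all 18274 probe sets called were 0% at 1, 2 and 4 hrs, 0.0164% at 7 hrs, 0.257% at 24 hrs and 0.848% at 48 hrs. In limma an unadjusted p under 0.05 was found for 0, 0, 2, 1, 2 and 4 of the 14 from 1 to 48 hrs, and the methods' test called 0, 0, 2, 1, 2 and 5. The widest differences at 48 hrs were those of Slc2a1. They were 1.14 on 1434773_a_at (95% interval 0.28 to 2.00, adjusted p = 0.288, or 0.049 with the replicate block), 0.91 on 1426599_a_at (0.26 to 1.55, adjusted p = 0.245) and 0.77 on 1426600_at (0.10 to 1.44, adjusted p = 0.431). For Irs2 the difference was 0.67 at 24 hrs (0.083 to 1.25, adjusted p = 0.496) and 0.37 at 48 hrs. For Slc2a4 1415959_at it was 0.46 at 24 hrs and 0.78 at 48 hrs (-0.083 to 1.64, adjusted p = 0.633). A call in 3T3-L1 and none in C3H/10T1/2 was thus not shown to be a difference between the lines. The blocked value of Slc2a1 lay just under 0.05 and rests on replicate numbers that the labels do not tie to batches.

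In DMSO, GLUT4 was higher and GLUT1 lower in 3T3-L1 than in C3H/10T1/2 at 1 hr. Of the 14 probe sets, 9 were called at 1 hr, 7 at 2 hrs, 9 at 4 hrs, 6 at 7 hrs, 4 at 24 hrs and 7 at 48 hrs. Over all probe sets the shares called were 44.8%, 34.9%, 41.4%, 37.2%, 38.7% and 41.8% at those times, and the members' counts changed with the fit and with single arrays. With the replicate block they were 10, 10, 9, 10, 7 and 8 from 1 to 48 hrs. Leaving out 1 array gave 2 to 6 calls at 24 hrs, and at 48 hrs 2 members and 33.4% of all probe sets without 3T3-L1 replicate 1. Those 2 were Slc2a1 1434773_a_at (-0.99, adjusted p = 0.0207) and 1426599_a_at (-0.91, adjusted p = 0.00422). The median over all probe sets was itself shifted upward in 3T3-L1, by 0.28 to 0.34, and quantile normalization took that shift to between 0.048 and 0.054. Line and differentiation protocol cannot be told apart in these comparisons.

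Slc2a4 1415958_at read 505.7, 501.7 and 521.1 in 3T3-L1 at 1 hr, against 287.1, 232.5 and 428.2 in C3H/10T1/2. The lines did not overlap, and the difference was 0.74 (SE 0.19, adjusted p = 0.0013). It was called at all 6 times, between 0.53 and 0.95, though at 24 hrs and 48 hrs leaving out any of 2 and any of 4 arrays ended the call (adjusted p up to 0.0898). On 1415959_at the difference was 1.00 to 1.25 from 1 to 7 hrs, and 0.55 and 0.26 at 24 and 48 hrs without a call. The 24-hr value had an adjusted p of 0.0297 with the replicate block, and the 48-hr value was 0.66 (adjusted p = 0.104) without 3T3-L1 replicate 1, the array at 263.2. The calls of this probe set at 1 and 2 hrs were lost without C3H/10T1/2 replicate 2 of that time (adjusted p = 0.0693 and 0.0723), and at 2 hrs also without 3T3-L1 replicate 3 (adjusted p = 0.0742). Slc2a1 1434773_a_at read 349.4, 569.5 and 475.6 in 3T3-L1 at 1 hr, against 1075.7, 1384.5 and 1474.9 in C3H/10T1/2. Every 3T3-L1 array was lower there (-1.51, SE 0.30, adjusted p = 5.11e-05). At 24 hrs that difference was -0.22 (adjusted p = 0.579), after the fall in C3H/10T1/2, and at 48 hrs -1.07 (adjusted p = 0.00369, or 0.0529 without C3H/10T1/2 replicate 3).

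**Figure D4:**
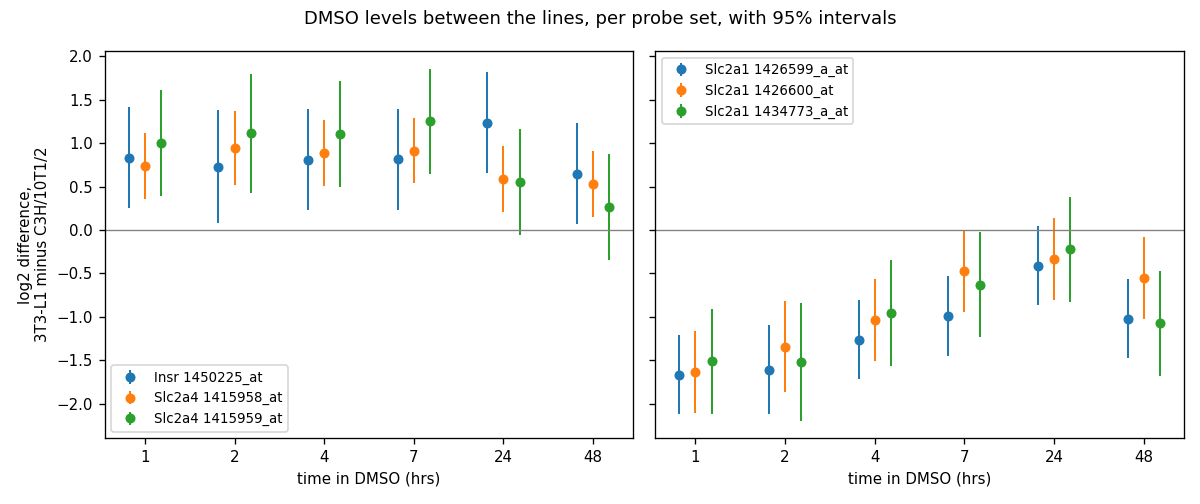
Log2 difference of DMSO cells, 3T3-L1 minus C3H/10T1/2, with 95% intervals against time for Insr and Slc2a4 (left) and Slc2a1 (right), per probe set. The Slc2a4 points lie above 0 throughout, and the Slc2a1 points run between -1.67 and -0.22.

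Among the signaling genes, Insr 1450225_at was higher in 3T3-L1 by 0.65 to 1.24 and called at 1, 4, 7 and 24 hrs. At 24 hrs it read 76.3, 92.4 and 72.3 in 3T3-L1, against 38.8, 20.8 and 48.3 in C3H/10T1/2 (1.24, adjusted p = 0.000622). After quantile normalization its differences at 1, 4 and 7 hrs were 0.34, 0.45 and 0.49 and were no longer called, and those 3 calls also ended without 1 of 2, 3 and 3 arrays (adjusted p up to 0.161). Insr 1421380_at was called at 48 hrs, where its C3H/10T1/2 arrays were all under the limit of presence. The mean in 3T3-L1 was 1.04-fold that limit, but its arrays read 26.9, 15.4 and 21.1, and 1 of them also lay under the limit. No least difference between the lines follows from these values. This call (0.97, adjusted p = 0.0468) did not hold with a floor at the limit (0.17, adjusted p = 0.542), with no filter (adjusted p = 0.0524), with only the groups compared (0.125) or with quantile normalization (0.518). It also ended without 3T3-L1 replicate 1 or 3 or C3H/10T1/2 replicate 1 or 3 (adjusted p up to 0.239). Pik3r1 1425514_at was lower in 3T3-L1, with differences between -1.38 and -0.88, and was called at 5 of the 6 times, though at 1, 24 and 48 hrs the call ended without 1 of 2, 3 and 4 arrays (adjusted p up to 0.219). The brightest Pik3r1 probe set, 1425515_at, was not called at any (differences between -0.46 and 0.030), or at 7 and 24 hrs with the replicate block (adjusted p = 0.028 and 0.0175). The third, 1451737_at, was lower in 3T3-L1 without overlap at all 6 times and called at 1, 4, 7 and 48 hrs, by -1.68, -1.60, -1.93 and -1.58. At 7 hrs it read 7.3, 54.8 and 39.8 in 3T3-L1, against 117.8, 88.2 and 85.4 in C3H/10T1/2 (adjusted p = 0.00259). A single low 3T3-L1 array at each of these times, between 7.3 and 10.3, lay under the limit of presence. Without it the differences were -1.05, -0.91, -1.04 and -0.81 and not called (adjusted p between 0.114 and 0.235), and the 48-hr call also ended without C3H/10T1/2 replicate 1 (adjusted p = 0.0654). Akt2 1424480_s_at was higher in 3T3-L1 at 1, 2 and 4 hrs, by 0.31, 0.36 and 0.33, and lower at 24 hrs (-0.33, adjusted p = 0.0131). The 24-hr call ended without C3H/10T1/2 replicate 1 (adjusted p = 0.11) or with quantile normalization (-0.18, adjusted p = 0.254), and each earlier one without 1 of 2 to 4 arrays (adjusted p up to 0.178). Akt2 1421324_a_at was called at 2 hrs (0.65, adjusted p = 0.0424), a call that any of 4 arrays ended on being left out, and at 48 hrs (-0.81, adjusted p = 0.00379), where without 3T3-L1 replicate 1 the difference was -0.21 (adjusted p = 0.37). Irs1 and Irs2 gave no call between the lines, or with the replicate block Irs2 at 2 and 7 hrs (0.56 and 0.49) and Irs1 at 24 hrs (-0.36).

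DMSO at 24 and 48 hrs against 1 hr, taken as counts, gave 1 and 5 calls of 14 in 3T3-L1 (0.949% and 1.96% of all probe sets) and 6 and 6 of 13 in C3H/10T1/2 (11.8% and 10.2% of all). In 3T3-L1 these were Irs2 at 24 hrs, and Irs2, Irs1 and the 3 Slc2a1 probe sets at 48 hrs. Those in C3H/10T1/2 were Irs1, both Akt2 and all 3 Slc2a1 probe sets at both times. Irs1 and Akt2 rose and Slc2a1 fell.

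The rest of the pathway was read from 6 lists of named genes. Of the receptors and adaptors, 2 of 19 probe sets, both of Sh2b2, rose at 48 hrs in 3T3-L1 and none fell. In C3H/10T1/2 none of 18 rose and 2 fell, beside 2.62% of all called lower. Sh2b2, an adaptor of the insulin receptor, averaged 804 ± 55.4 with RSG and 470.4 ± 151 with DMSO at 48 hrs in 3T3-L1 (0.83, adjusted p = 0.000483). Cav1, the caveolar coat protein, averaged 912 ± 119 with RSG and 1998 ± 181 with DMSO at 48 hrs in C3H/10T1/2 (-1.14, adjusted p = 5.57e-07). Shc1, an adaptor toward the Ras pathway, differed there by -0.59 (adjusted p = 0.0202), a call lost on leaving out any of 5 arrays (adjusted p up to 0.131).

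In the core of phosphoinositide 3-kinase and Akt, 2 of 15 probe sets rose and 1 fell at 48 hrs in 3T3-L1, and 1 rose and none fell in C3H/10T1/2. Mlst8, a subunit of the mTOR complexes, averaged 146 ± 10.9 with RSG and 82.6 ± 9.95 with DMSO at 48 hrs in 3T3-L1 (0.83, adjusted p = 0.000176). Its difference in C3H/10T1/2 was 0.56 (adjusted p = 0.0259), a call that any of 4 arrays ended on being left out (adjusted p up to 0.244). Mapkap1, another mTOR complex subunit, rose by 0.50 in 3T3-L1 at 48 hrs (adjusted p = 0.0164), a call lost without RSG or DMSO replicate 1 of that time (adjusted p = 0.0994 and 0.203). Pik3r2, the p85β subunit, fell by 0.59 on the log2 scale at 24 hrs (adjusted p = 0.00511), with an adjusted p of 0.0512 without DMSO replicate 2.

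Of the brakes on insulin signaling, none of 30 probe sets rose and 5 fell at 24 hrs in 3T3-L1, and 2 rose and 3 fell at 48 hrs. Of all probe sets there, 6.97% and 8.09% were called lower at 24 and 48 hrs. The falls at both times were of Grb14, Socs3 and Inpp5k, with Socs3 and Inpp5k counted on more than 1 probe set at 24 hrs. Of 32 in C3H/10T1/2 none rose and 2 fell at 24 hrs, and 1 fell at 48 hrs, beside 4.07% and 2.62% of all. Grb14, an adaptor that inhibits the receptor's kinase, averaged 59.7 ± 6.92 with RSG and 130.1 ± 8.08 with DMSO at 24 hrs in 3T3-L1 (-1.13, adjusted p = 6.91e-06). In C3H/10T1/2 at 48 hrs it averaged 46.8 ± 2.19 with RSG and 115 ± 20.8 with DMSO (-1.28, adjusted p = 1.62e-05). Grb14 thus fell in both lines. Socs3, a suppressor of cytokine and insulin signals, averaged 37.4 ± 14.1 with RSG and 85.7 ± 20.8 with DMSO at 24 hrs in 3T3-L1 (-1.25, adjusted p = 0.0184), a call lost on leaving out any of 3 arrays (adjusted p up to 0.149). Inppl1 (the lipid phosphatase SHIP2) and the pseudokinase Trib3 rose at 48 hrs in 3T3-L1, by 0.56 and 0.65, and the phosphatase Ptpn1 differed by -0.56 at 24 hrs in C3H/10T1/2. Each of these 3 calls was lost on leaving out any of 5 arrays.

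Of the targets of Akt, 5 of 27 probe sets rose at 48 hrs in 3T3-L1 and none fell, with 2 rises at 24 hrs. All these rises were of Gys1 or Acly probe sets. Of 27 in C3H/10T1/2, 1 rose and 1 fell at 48 hrs, and 3 of Gys1 or Eif4ebp2 rose at 24 hrs. The fall was that of Bad, a protein of cell death that Akt phosphorylates (-0.50, adjusted p = 0.0234). Gys1, glycogen synthase, averaged 666 ± 66.8 with RSG and 226 ± 42.9 with DMSO at 24 hrs in 3T3-L1 (1.57, adjusted p = 1.88e-05), and 753.8 ± 53.4 with RSG and 378 ± 63.6 with DMSO in C3H/10T1/2 (1.01, adjusted p = 8.2e-05). Acly, the citrate lyase that feeds fatty acid synthesis, averaged 1676 ± 133 with RSG and 895.3 ± 130.3 with DMSO at 48 hrs in 3T3-L1 (0.91, adjusted p = 1.01e-05). Of the proteins that move GLUT4 vesicles, 0 of 42 probe sets rose and 3 fell at 48 hrs in 3T3-L1, and 5 fell at 24 hrs. Of all probe sets in that line, 8.09% were called lower at 48 hrs and 6.97% at 24 hrs. In C3H/10T1/2 0 of 39 moved at either time (limma). Stxbp4, which binds syntaxin 4, averaged 20.8 ± 8.28 with RSG and 49.3 ± 4.47 with DMSO (-1.31, adjusted p = 0.00338) at 48 hrs. Its RSG arrays read 30.2, 14.5 and 17.8, of which 2 lay under the limit of presence, and the call was lost with only the groups compared (adjusted p = 0.0534). Stxbp3 differed by -0.65 at 24 hrs (adjusted p = 0.0358), a call lost on leaving out any of 4 arrays (adjusted p up to 0.225).

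Of the other glucose carriers and hexokinases, Hk2 was the 1 probe set of 13 called in 3T3-L1. This hexokinase, which traps glucose in the cell, averaged 1388 ± 255 with RSG and 532 ± 17.5 with DMSO at 48 hrs (1.37, adjusted p = 1.64e-08), and at 24 hrs in C3H/10T1/2 714 ± 138 with RSG and 415 ± 71.8 with DMSO (0.78, adjusted p = 0.00965, up to 0.0683 without 1 array). The lists leave out genes that were not analysed here. In 3T3-L1 the shares called upward stand beside 4.79% (24 hrs) and 6.2% (48 hrs) of all those tested, and downward beside 6.97% and 8.09%. In C3H/10T1/2 they stand beside 3.65% and 2.79% upward, and 4.07% and 2.62% downward.

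**Figure D5:**
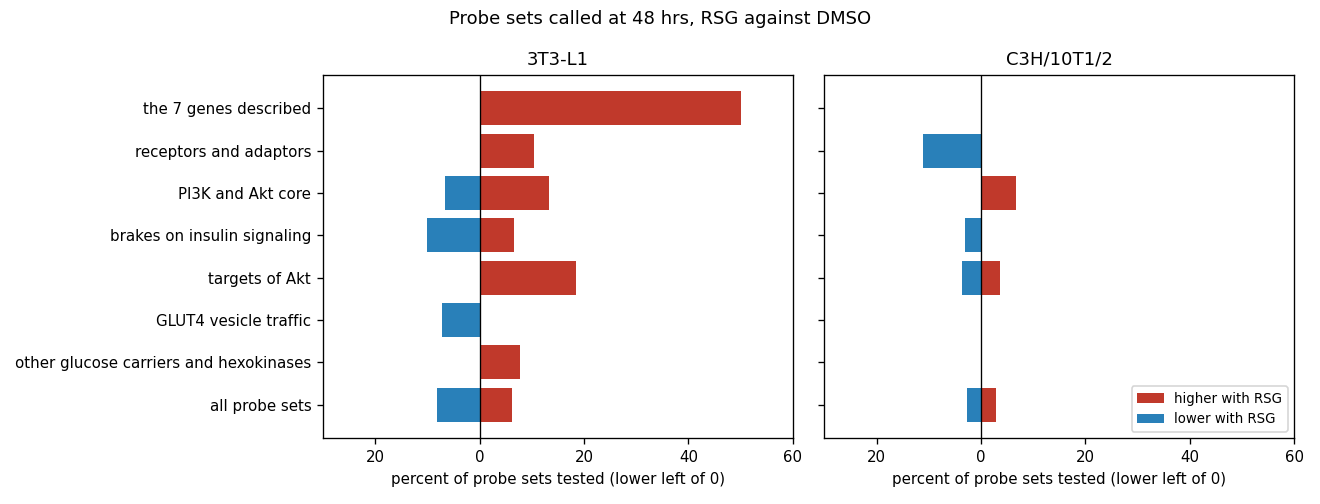
Percent of tested probe sets called higher (red, right of 0) or lower (blue, left of 0) with RSG at 48 hrs, for the 7 genes, the 6 pathway lists and all probe sets, in 3T3-L1 (left) and C3H/10T1/2 (right). For the 7 genes 7 of 14 probe sets were higher in 3T3-L1 and none of 13 was called in C3H/10T1/2.

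Slc2a4 and Slc2a1 were called higher with RSG in 3T3-L1 at 24 and 48 hrs. At these times transcripts from a list of fibroblast and preadipocyte genes fell with RSG. In 3T3-L1 7 of 19 probe sets of that list fell at 24 hrs and 10 at 48 hrs, where 6.97% and 8.09% of all probe sets were called lower, and its summed signal at 48 hrs ranged between 17524 and 18939 with RSG and between 24663 and 25176 with DMSO. In C3H/10T1/2 6 of 18 fell at 24 hrs and 5 at 48 hrs, beside 4.07% and 2.62% of all, with sums at 48 hrs between 12366 and 14071 with RSG and between 16359 and 16688 with DMSO. The adipocyte list overlapped at 48 hrs, with sums between 29158.5 and 39325 with RSG and between 27828 and 37159 with DMSO in 3T3-L1. Among probe sets of the brown adipocyte list called higher, 3T3-L1 had 2 of 8 at 24 hrs and 1 of 8 by 48 hrs, while C3H/10T1/2 had 2 of 6 and 1 of 6, and none was called lower. The summed signal of this list at 48 hrs ranged between 722.3 and 1115.4 with RSG and between 223.6 and 238.7 with DMSO in 3T3-L1. The same sum in C3H/10T1/2 ranged between 719.7 and 980.9 with RSG and between 221.8 and 375.9 with DMSO. At 1 hr in that line it had ranged between 1179.2 and 1908 with RSG and between 1262.9 and 1819.4 with DMSO. It was thus lower at 48 hrs with either treatment, and lowest with DMSO. Cidea alone reached 975 in 3T3-L1 and 1931 in C3H/10T1/2 over the course. No other gene of this list went above 116 and 43.8 there, so the sums do not show the list rising as a whole. The part of these markers in the results above was not tested, and in bulk RNA fewer cells of a type and less RNA per cell cannot be told apart.

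Genes whose pattern most resembled that of each member were found over 24 group means centred within each line, among 9314 genes. Slc2a1 was closest to Hsp90b1 (r = 0.92), a chaperone of the endoplasmic reticulum, then Vopp1 and Ndel1. Slc2a4 was closest to Lgals12 (r = 0.88), a galectin of adipocytes, Scarb1 (r = 0.87), a lipoprotein receptor, and Itga7. Irs1 was closest to Rfc1 (r = 0.90) and Akt2 to Nnmt (r = 0.91). For both, Sort1 came next (r = 0.88 and 0.90), the sorting receptor sortilin of GLUT4 vesicles. Slc2a1 ran opposite to both members (r = -0.82 with Irs1 and -0.81 with Akt2). Irs2 was closest to Etv3 (r = 0.83), Insr to Mga (r = 0.75) and Pik3r1 to Fut10 (r = 0.77). These values describe 24 means that share arrays, culture time and treatment.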

How the data were processed

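Total RNA of 71 cultures was hybridised to Affymetrix mouse arrays, with the RNA randomised before labelling per the labels. The authors deposited 1 table of MAS5 signal intensity per probe set, and its scaling gave every array a mean of about 150.1 after trimming 2% at each end. Controls (64 of 22690 rows) were set aside. Genes came from the platform annotation: 20380 probe sets had 1 gene, 691 several and 1555 none. Signals of 0 (132 values) were set to 0.1 and log2-transformed. In limma 3.58.1 (R 4.3.3) 1 mean per group was fitted by line, and over both lines for differences between them, with an intensity trend and Benjamini-Hochberg adjustment over probe sets with a group mean at or above the limit of presence, in place of the methods' analysis of variance. The script was tested on simulated data. Alternatives were a floor, no filter, no trend, quantile normalization, only the groups compared, the methods' test, a replicate block and each array left out.

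Members and lists were chosen with earlier results of these data known. Every member probe set is described, and per list up to 2 rises and 2 falls per line among brightest probe sets with groups that did not overlap. In C3H/10T1/2 all 18 same-numbered pairs of RSG and DMSO arrays correlated weakly in their deviations (r between 0.124 and 0.313). In 3T3-L1 16 of 17 pairs did so with r over 0.1. Whether equal numbers share a batch is not known, so blocked values stand beside the C3H/10T1/2 results where a call changed. The number of arrays limits the precision.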

Additional observations from a re-analysis of the deposited data

Results flagged for a closer look

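Cav1, the caveolar coat protein of the receptor and adaptor list, was the 1 named gene whose response to RSG differed between the lines by the direct test without a replicate block. At 48 hrs its signal was 3636.9, 3777.7 and 3115.3 with RSG and 4472.9, 4390.3 and 3852.7 with DMSO in 3T3-L1, and 797.5, 1034.9 and 902.7 with RSG and 1948.4, 2198.5 and 1846.2 with DMSO in C3H/10T1/2. The difference of the effects, 3T3-L1 minus C3H/10T1/2, was 0.86 (limma, adjusted p = 0.00906), and 0.111 was its adjusted p when only the 4 groups of that time were fitted. RSG arrays were lower than DMSO arrays in both lines.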

How the results depend on the processing

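The methods' test (unadjusted p and 1.2-fold) called 12 member probe sets over the course in C3H/10T1/2, where the limma fits called 1, and 10 for the difference between the lines, where limma called 0. In C3H/10T1/2 quantile normalization gave 2 calls and a fit of only the groups compared gave 0. In 3T3-L1 that fit ended the calls of Slc2a1 1426600_at at 24 hrs (adjusted p = 0.0904) and of Slc2a4 1415958_at and Akt2 1421324_a_at at 48 hrs (0.126 and 0.28). Blocking on replicate number gave 4 calls in C3H/10T1/2 and 1 (Slc2a1 1434773_a_at at 48 hrs, adjusted p = 0.049) for the difference between the lines. Each condition came from 3 differentiation batches, which the labels do not tie to the replicate numbers. The main fit paired neither line by number. In 3T3-L1 the pairs correlated much as in C3H/10T1/2 (16 of 17 pairs over 0.1, r between -0.001 and 0.327). The block left the 3T3-L1 count at 13 over the course. Leaving out each array in turn gave 0 to 2 calls in C3H/10T1/2, and in 3T3-L1 2 to 4 at 24 hrs (2 without RSG replicate 3) and 5 to 7 at 48 hrs. The difference of Slc2a1 1434773_a_at between the lines at 24 hrs, near 0 in limma, was 0.088 after quantile normalization and -0.31 to 0.32 as each array was left out. That of 1426599_a_at, 0.020, ran from -0.25 to 0.27, and the 48-hr effect on 1434773_a_at in C3H/10T1/2, 0.26, from -0.050 to 0.54. The cause of these changes was not tested. With 3 arrays a group, changes near the spread could not be resolved, and signals near the limit of presence give bounds only.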
